A study of Mus musculus with 9 samples.

Results

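The step from early to later myotubes was followed by setting the 3 libraries collected at day 5 of differentiation against the 3 collected at day 3, 1 library per genotype on each day, paired by genotype. These are 6 of the 9 libraries of the series, and each of the 12752 genes tested is a member of the comparison. C2C12 is an established mouse myoblast line, grown in 10% fetal bovine serum and moved at day 0 to medium with 5% horse serum and 1% insulin-transferrin-selenium. The genotypes are control cells, cells with a knockdown of Cry1 and cells with a knockdown of Cry2, genes that encode cryptochromes, repressors of the circadian clock. How the knockdowns were made, whether a line is 1 clone and what the control cells carry are not given in the labels. Day 0 libraries of the same 3 genotypes are given beside the others for orientation, and they also enter the statistical fit.

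Myoblasts that lose serum growth factors leave the cell cycle, switch on the MyoD family of transcription factors, and fuse into multinucleated myotubes. The first sarcomere proteins are embryonic forms. In the days after fusion the fibre adds the giant scaffold proteins of the sarcomere, the calcium release machinery and the postsynaptic receptor, and exchanges embryonic for later isoforms of several of these proteins.

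Depth was even, with 4731020 to 6412279 reads counted on genes per library, so that 3 reads, the limit that a count of 0 allows, correspond to 0.468 to 0.634 CPM (counts scaled to the library's total). Mitochondrially encoded genes took 1.34 to 2.21% of the reads at days 3 and 5. The knockdown labels were checked on the targeted genes. Cry1 stood at 15.8, 6.65 and 19.3 CPM at day 3 and 17.4, 8.14 and 22.9 CPM at day 5 in control, Cry1 knockdown and Cry2 knockdown cells, the order in which every set of 3 values is given below. Cry2 stood at 39.6, 37.1 and 8.26 CPM at day 3 and 48.9, 68.1 and 16.6 CPM at day 5. Each targeted gene was therefore lowest in its own knockdown on both days. The 9 skeletal muscle markers summed to 15359, 20925 and 18007 CPM at day 3 against 2416, 3170 and 2509.8 CPM at day 0, which places all 6 compared libraries after the onset of differentiation.

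With 1 library per genotype and day, the 3 genotypes served as the repeats of each day. Values are CPM scaled by the trimmed mean of M values (TMM). Each log2 fold change is day 5 over day 3 (n = 3 libraries per day) from edgeR's quasi-likelihood fit of all 9 libraries with genotype as the block. The standard error (SE) given with it was worked back from the test. It is the size of the change divided by the square root of the F statistic, so it is approximate, above all in genes with few reads. The p-value of each change is adjusted by Benjamini-Hochberg over all genes tested, and "rose" or "fell" is written of adjusted p under 0.05. These p-values rest on how far single libraries of the 3 genotypes disagree over days 0, 3 and 5, not on repeated cultures. The day 0 libraries therefore enter the error as well. In bulk RNA, fewer cells of a kind and less RNA per cell cannot be told apart.

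Between day 3 and day 5, 1920 genes rose (15.1% of those tested) and 1718 fell (13.5%), so that 28.5% of genes were called in either direction. A change of at least 2-fold was called in 350 genes that rose (2.74%) and 270 that fell (2.12%). Among the 3638 called genes, 3624 moved the same way in all 3 genotypes, and in 3104 the day 3 and day 5 libraries did not overlap. Over all 12752 genes tested the days did not overlap in 4636 (36.4%), and the share moving the same way was not worked out. Both counts come from the values that made the calls, so they describe the calls and add no support. The median log2 fold change over all genes was 0.01. The shares of 15.1% and 13.5% are the background for every list count below, and a list count near them is no result about the list. Leaving out a library changed the number of calls by over 1.5 times for Cry1 knockdown day 3 (2161 calls), Cry1 knockdown day 5 (2108), Cry2 knockdown day 3 (2045) and Cry2 knockdown day 5 (2252).

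**Figure D1:**
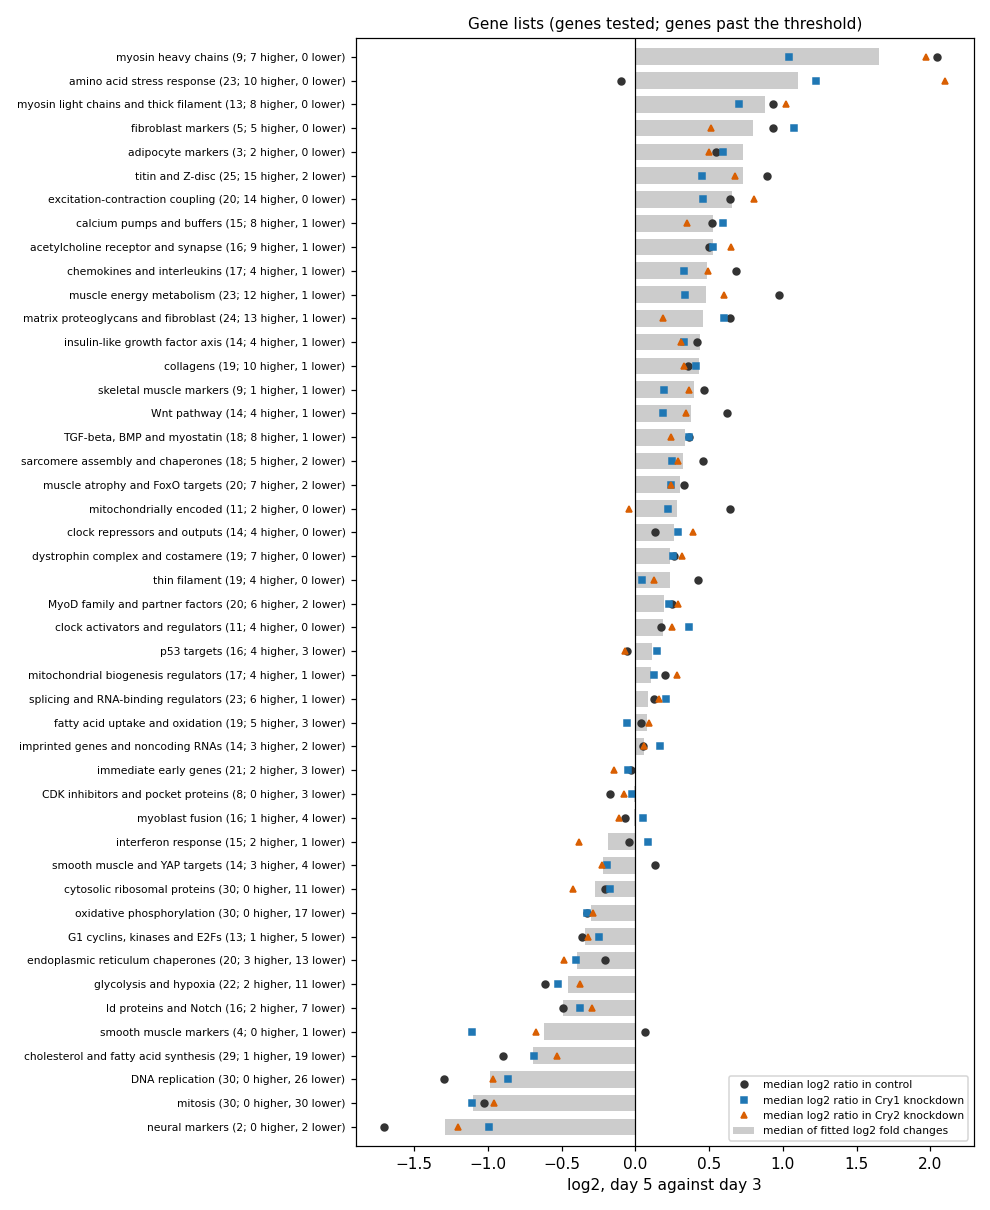
Median log2 fold change of day 5 over day 3 in each gene list (bar), with the median log2 ratio within each genotype as a symbol, for lists with at least 2 tested genes. Brackets beside a name give the genes tested and called; myosin heavy chains reach 1.65 and mitosis genes -1.10, while the median of all genes is 0.01.

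The 14 largest rises and 14 largest falls were taken from called genes with a mean of at least 1 CPM over the 6 libraries and the same direction in all 3 genotypes. Scel, which encodes sciellin, a protein best known from cornified epithelium, was at 0, 0.499 and 0 CPM at day 3 and 5.01, 4.25 and 3.59 CPM at day 5. Its 3 libraries of day 3 held 3 reads in all against 70 at day 5, a ratio per depth of 22.7 with a 95% exact counting interval of 7.45 to 113. That interval covers the counting of pooled reads only and leaves out the spread between libraries. Scel was picked for the size of its rise, so the interval is no test of it. Esrrg, the nuclear receptor estrogen-related receptor gamma that is linked to oxidative muscle, was at 0.840, 0 and 0.423 CPM at day 3 and 5.56, 8.49 and 4.73 CPM at day 5 (log2 fold change 3.84 ± 0.64, adjusted p = 0.00626). All 3 libraries of day 3 were near the depth limit for both genes and all 3 of day 5 were above it.

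Col25a1, a membrane collagen of developing muscle required for its innervation, was at 1.85, 6.82 and 0.423 CPM at day 3 and 24.5, 66.0 and 11.2 CPM at day 5 (log2 fold change 3.54 ± 0.22, adjusted p = 0.00039). Dmd, the gene of dystrophin, was at 0.504, 4.49 and 0 CPM at day 3 and 5.01, 34.0 and 5.11 CPM at day 5 (log2 fold change 3.23 ± 0.42, adjusted p = 0.00132). Chrne, the epsilon subunit that replaces gamma in the adult acetylcholine receptor, was at 0.336, 0.499 and 0.423 CPM at day 3 and 7.79, 3.89 and 2.65 CPM at day 5 (log2 fold change 3.43 ± 0.48, adjusted p = 0.00321). The Cry1 knockdown held the highest values of Col25a1 and Dmd on both days, whereas the control held the highest Chrne at day 5. Myot, which encodes the Z-disc protein myotilin, was at 2.01, 4.16 and 0.423 CPM at day 3 and 12.6, 17.2 and 13.1 CPM at day 5 (log2 fold change 2.74 ± 0.42, adjusted p = 0.00431), and all day 5 libraries lay above all day 3 libraries. The days did not overlap for Col25a1, Dmd and Chrne either.

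The other rises were Hsd17b13 (3.58 ± 0.41, adjusted p = 0.00163), Mrvi1 (3.27 ± 0.48, adjusted p = 0.00204), Tfcp2l1 (3.21 ± 0.64, adjusted p = 0.00699), the sodium channel gene Scn3a (3.09 ± 0.47, adjusted p = 0.00238), Stum (2.79 ± 0.55, adjusted p = 0.0108), the ATP-gated channel gene P2rx3 (2.78 ± 0.37, adjusted p = 0.00143), the matrix glycoprotein gene Tnr (2.75 ± 0.31, adjusted p = 0.00149), the 1 rise whose days overlapped, and Cd24a (2.72 ± 0.65, adjusted p = 0.0149). Adjusted p became 0.0624 without control day 5 for Stum, and 0.0527 without Cry1 knockdown day 5 for Tfcp2l1. For Cd24a it became 0.059 without Cry1 knockdown day 3 and 0.0834 without Cry2 knockdown day 3. These 3 genes reached at most 13.4 CPM in any library.

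Cdkn1c, the cyclin-dependent kinase inhibitor p57, showed the largest fall. It had been at 0.880, 1.33 and 0.808 CPM at day 0, stood at 17.5, 22.1 and 5.93 CPM at day 3 and 1.85, 1.77 and 0.378 CPM at day 5 (log2 fold change -3.48 ± 0.30, adjusted p = 0.000562), and 30.7% of its exon bases are shared with another annotated gene. Its day 5 levels were thus back near those of day 0. Nefl, the neurofilament light chain, was at 21.0, 16.6 and 6.35 CPM at day 3 and 3.15, 3.36 and 2.46 CPM at day 5 (log2 fold change -2.29 ± 0.43, adjusted p = 0.00554) after 136, 128 and 171 CPM at day 0. Of its exon bases 32.8% are shared with another annotated gene. Pclaf, which encodes a clamp-associated factor of DNA replication, was at 15.4, 12.6 and 13.1 CPM at day 3 and 3.71, 4.42 and 1.89 CPM at day 5 (log2 fold change -2.04 ± 0.22, adjusted p = 0.000749). For both genes the 3 libraries of day 5 lay below all of day 3.

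Of the 11 other large falls, 6 were genes of the cell cycle, DNA repair or the centromere, namely Cdc6 (-2.13 ± 0.28, adjusted p = 0.0014), Mybl2 (-2.17 ± 0.38, adjusted p = 0.00431), Aunip (-2.58 ± 0.42, adjusted p = 0.00295), Fancb (-2.33 ± 0.33, adjusted p = 0.00179), Cenpu (-2.05 ± 0.56, adjusted p = 0.0247) and Cenph (-2.00 ± 0.40, adjusted p = 0.0076). The rest were Gzme (-2.63 ± 0.59, adjusted p = 0.0114), Gpr35 (-2.52 ± 0.53, adjusted p = 0.00863), the hypoxia-responsive Ankrd37 (-2.21 ± 0.33, adjusted p = 0.00207), Glipr1 (-2.03 ± 0.47, adjusted p = 0.0135) and the kinase gene Map2k6 (-1.98 ± 0.42, adjusted p = 0.00917). The days overlapped for Gzme, which held 6, 22 and 4 reads at day 3 and 0, 5 and 0 reads at day 5. All 11 genes held at most 7 reads in any day 5 library, near the depth limit of 3 reads, so the size of these falls is uncertain. Without single libraries, adjusted p was 0.0993 without Cry1 knockdown day 5, 0.0781 without Cry2 knockdown day 3, 0.0683 without control day 3 and 0.0963 without control day 5 for Cenpu and 0.0542 without control day 5 for Glipr1. For Map2k6 it was 0.0508 without Cry2 knockdown day 3 and 0.0573 without Cry2 knockdown day 5. Exon bases shared with another annotated gene made up 26.4% of Ankrd37, 26.7% of Cenpu and 22.8% of Glipr1.

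**Figure D2:**
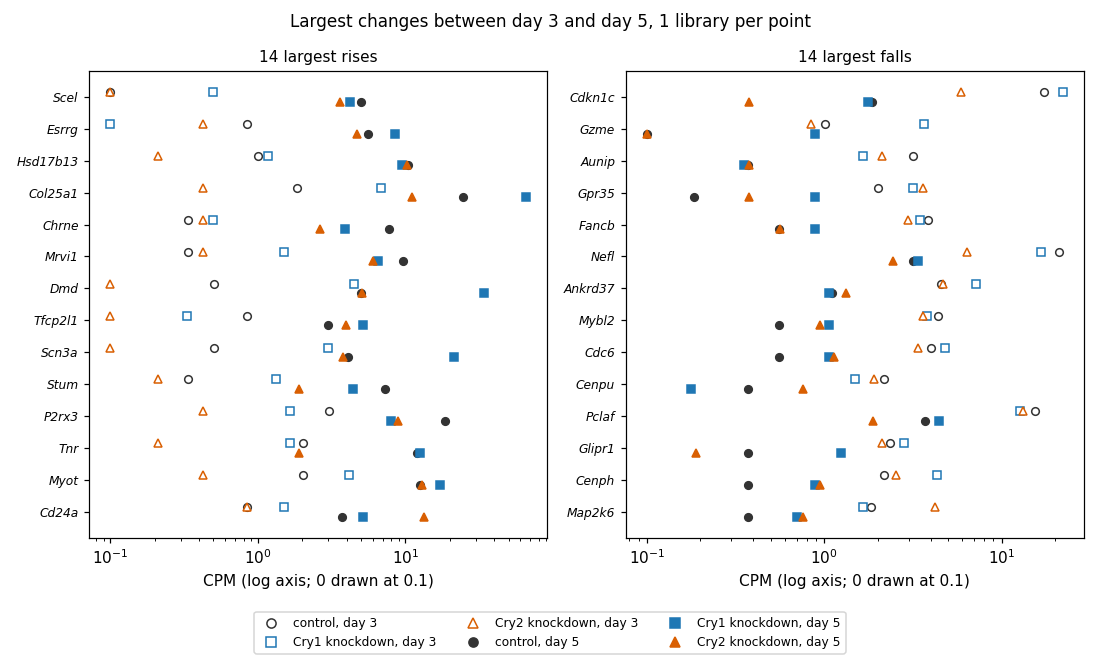
CPM on a log axis in each of the 6 libraries for the 14 largest rises and 14 largest falls among called genes, with a value of 0 drawn at 0.1. Every day 5 point lies to the right of every day 3 point for the rises and to the left for the falls, except in Tnr and Gzme, where the days overlap; Dmd, Scn3a and Col25a1 spread most between genotypes.

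Myosin heavy chains, the motor proteins of the thick filament, rose in 7 of 9 tested genes and fell in 0, and the median log2 fold change was 1.65. The adult fast genes were Myh2 (IIa) at 6.38, 14.1 and 6.56 CPM at day 3 and 26.9, 44.2 and 30.5 CPM at day 5 (log2 fold change 1.95 ± 0.22, adjusted p = 0.000864), Myh1 (IIx) at 102, 222 and 66.5 CPM at day 3 and 496, 707 and 533 CPM at day 5 (log2 fold change 2.36 ± 0.32, adjusted p = 0.00153) and Myh4 (IIb) at 43.7, 115 and 21.0 CPM at day 3 and 168, 291 and 180.1 CPM at day 5 (log2 fold change 2.07 ± 0.29, adjusted p = 0.0016). In each of these 3 genes every day 5 library lay above every day 3 library, and the Cry1 knockdown was highest on both days. Myh8, the perinatal form, was at 69.0, 245 and 26.0 CPM at day 3 and 291, 504 and 197 CPM at day 5 (log2 fold change 1.95 ± 0.29, adjusted p = 0.00207). Myh7, the slow or beta form, was at 56.4, 161 and 23.9 CPM at day 3 and 239.7, 319 and 94.2 CPM at day 5 (log2 fold change 1.65 ± 0.20, adjusted p = 0.001), and Myh6, the alpha form, at 11.3, 34.4 and 6.35 CPM at day 3 and 53.4, 61.4 and 21.9 CPM at day 5 (log2 fold change 1.54 ± 0.24, adjusted p = 0.0026). Days overlapped for these 3 genes, since the Cry1 knockdown at day 3 exceeded the Cry2 knockdown at day 5. Within each genotype all 3 increased.

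The embryonic gene Myh3 was already abundant at day 3, at 3575, 4884 and 3303 CPM at day 3 and 6819, 6513 and 7465 CPM at day 5 (0.89 ± 0.30, adjusted p = 0.0555), and did not pass the threshold, although its days did not overlap. Myh7b (0.21 ± 0.18, adjusted p = 0.402) did not pass it either. Per kilobase of exon, the mean level of Myh3 was 647 CPM at day 3 and 1145 CPM at day 5, against 20.5 and 91.1 CPM for Myh1, the next most abundant form on both days. Myh4 went from 9.96 to 35.4 CPM, Myh8 from 9.63 to 28.1 CPM and Myh7 from 9.35 to 25.3 CPM per kilobase. Embryonic myosin thus remained the most abundant heavy chain transcript at day 5. From day 0 to day 3, a comparison that shares the day 3 libraries, the log2 fold change of Myh3 was 5.39 ± 0.37 and that of Myh1 was 3.09 ± 0.37.

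**Figure D3:**
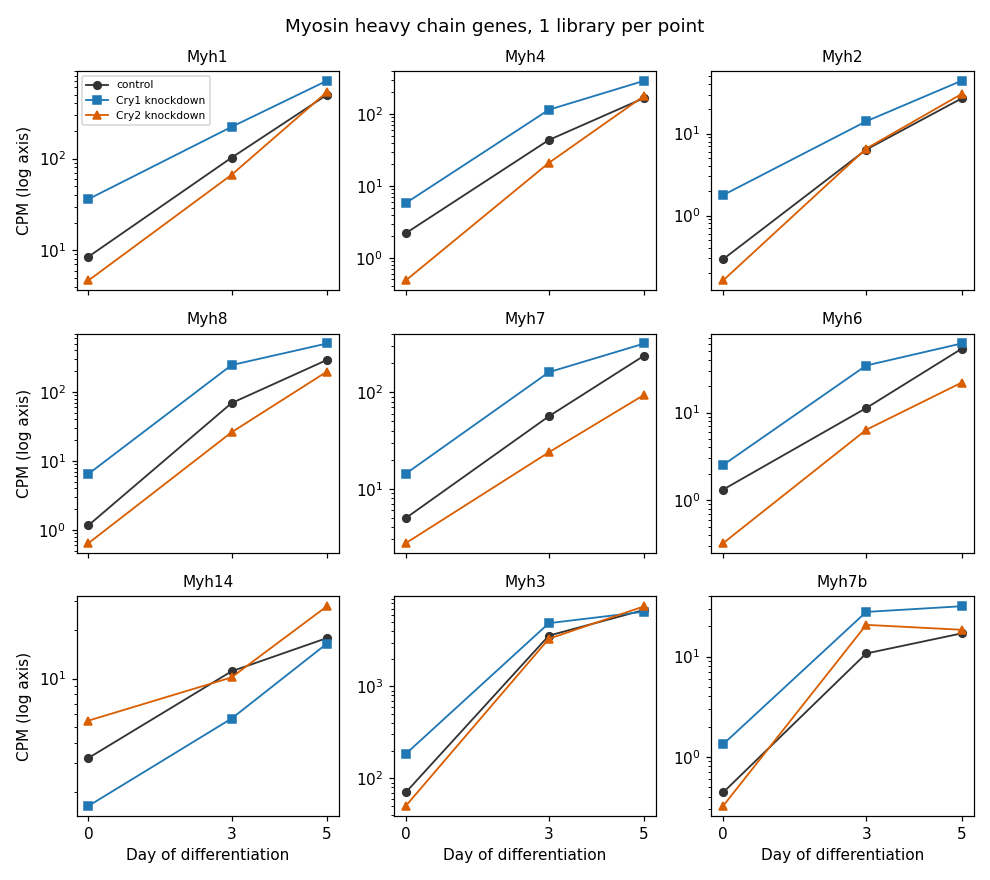
CPM on a log axis at days 0, 3 and 5 for each myosin heavy chain gene, 1 line per genotype and 1 library per point. Lines for Myh1, Myh2 and Myh4 climb between day 3 and day 5 in all 3 genotypes, and the line of Myh3 is steepest before day 3.

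The other thick filament proteins gave 8 of 13 tested genes higher and none lower, with a median of 0.88. Mybpc1, slow myosin-binding protein C, was at 56.1, 129.9 and 25.0 CPM at day 3 and 289, 355 and 156 CPM at day 5 (log2 fold change 2.11 ± 0.20, adjusted p = 0.000562). Its fast counterpart Mybpc2 rose as well (1.71 ± 0.18, adjusted p = 0.000671), with the days overlapping. Among the M-band proteins that crosslink thick filaments, Myom3 was at 119, 209 and 91.5 CPM at day 3 and 373, 388 and 347 CPM at day 5 (log2 fold change 1.49 ± 0.19, adjusted p = 0.00127) and Myom2 rose by less (0.87 ± 0.11, adjusted p = 0.0013). Mylk2, the skeletal myosin light chain kinase, rose (1.13 ± 0.18, adjusted p = 0.00256). The light chain Myl1, at 1008, 1933 and 1199.9 CPM at day 3 and 1922, 2496 and 2132 CPM at day 5, did not pass the threshold (0.74 ± 0.25, adjusted p = 0.056).

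Of the thin filament genes, 4 of 19 tested rose and none fell, with a median of 0.23. The 4 were Nrap, a chaperone of myofibril assembly (1.58 ± 0.14, adjusted p = 0.000562), Neb, the giant nebulin that spans the thin filament (1.91 ± 0.30, adjusted p = 0.00269), and the leiomodins Lmod2 (1.07 ± 0.19, adjusted p = 0.00463) and Lmod3 (0.91 ± 0.17, adjusted p = 0.00549), which nucleate actin. Neb was at 298, 384 and 184 CPM at day 3 and 891, 1311 and 951 CPM at day 5, all day 5 libraries above all of day 3. Acta1, skeletal alpha-actin, was at 5042, 7762 and 7309 CPM at day 3 and 6148, 6377 and 6614 CPM at day 5 (log2 fold change -0.03 ± 0.37, adjusted p = 0.963) after a log2 fold change of 5.38 ± 0.46 from day 0 to day 3. Actc1, cardiac alpha-actin, was at 1437, 2842 and 1235 CPM at day 3 and 1357, 1585 and 1001 CPM at day 5 (-0.38 ± 0.26, adjusted p = 0.313), and Tnnt3, fast troponin T, at 856, 1351 and 1041 CPM at day 3 and 1364, 1626 and 1649.7 CPM at day 5 (0.56 ± 0.25, adjusted p = 0.123). None of these last 3 passed the threshold.

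Titin and Z-disc genes rose in 15 of 25 cases and fell in 2, with a median of 0.73. Flnc, muscle filamin, was at 996, 924 and 685 CPM at day 3 and 2022, 2140.4 and 2069 CPM at day 5 (log2 fold change 1.27 ± 0.12, adjusted p = 0.000562). The strain-responsive Ankrd1 was at 767, 585 and 610.0 CPM at day 3 and 1848, 1818 and 2606 CPM at day 5 (log2 fold change 1.67 ± 0.18, adjusted p = 0.000711). In both the lowest day 5 library was about 2 times the highest day 3 library or more. Also higher were Mypn (1.83 ± 0.20, adjusted p = 0.000711), Xirp1 (1.46 ± 0.22, adjusted p = 0.0023), Xirp2 (2.07 ± 0.30, adjusted p = 0.00203) and the titin cap gene Tcap (1.37 ± 0.21, adjusted p = 0.00262), which had been at 0, 0.296 and 0.162 CPM at day 0. Ttn, titin itself, was at 666, 611 and 495 CPM at day 3 and 1146, 1197 and 1036 CPM at day 5 (log2 fold change 0.93 ± 0.21, adjusted p = 0.0122). That call did not hold without single libraries, with adjusted p = 0.0599 without Cry1 knockdown day 3, 0.0582 without Cry2 knockdown day 3, 0.053 without Cry2 knockdown day 5 and 0.0586 without control day 5, and removal of the trend with exon length, described below, ended it (adjusted p = 0.97). The count of genes that fell became 1 without any 1 of Cry1 knockdown day 5, Cry2 knockdown day 3 and control day 5. Fhl3, a LIM protein, was among the 2 that fell (-0.75 ± 0.11, adjusted p = 0.00219).

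Among factors of sarcomere assembly, 5 of 18 rose and 2 fell, and 3 rose without Cry2 knockdown day 3, 3 without control day 3 and 2 without control day 5. The 2 lower became 1 without any 1 of Cry1 knockdown day 5, Cry2 knockdown day 3 and Cry2 knockdown day 5. Hspb7, a small heat shock protein of striated muscle, was at 42.5, 71.5 and 55.7 CPM at day 3 and 162, 161 and 206 CPM at day 5 (log2 fold change 1.66 ± 0.17, adjusted p = 0.000671). Trim54, the microtubule-associated ubiquitin ligase MuRF3, rose (1.22 ± 0.17, adjusted p = 0.00178), with 26.6% of its exon bases shared with another gene. Hspb1, the broadly expressed heat shock protein, fell (-0.46 ± 0.10, adjusted p = 0.00863).

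Excitation-contraction coupling genes, which turn a membrane action potential into calcium release, rose in 14 of 20 cases and fell in none, with a median of 0.65. Casq1, the calcium store protein calsequestrin, had the lowest p of the list at 25.4, 46.6 and 23.7 CPM at day 3 and 117, 186 and 116 CPM at day 5 (log2 fold change 2.15 ± 0.15, adjusted p = 0.00039). Ryr1, the calcium release channel, was at 275, 326 and 197 CPM at day 3 and 736, 893 and 775 CPM at day 5 (log2 fold change 1.62 ± 0.18, adjusted p = 0.000754). Cacna1s, the voltage sensor of the T-tubule, was at 169, 180.3 and 135 CPM at day 3 and 339.6, 342 and 316 CPM at day 5 (log2 fold change 1.06 ± 0.21, adjusted p = 0.00747). In all 3 the day 5 libraries lay above the day 3 libraries. Its beta subunit gene Cacnb1 was almost equal in the 3 genotypes, at 154, 159 and 159 CPM at day 3 and 290.3, 282 and 286 CPM at day 5 (log2 fold change 0.86 ± 0.07, adjusted p = 0.000562). The auxiliary subunits Cacna2d1 (0.60 ± 0.09, adjusted p = 0.00177) and Cacng1 (0.51 ± 0.08, adjusted p = 0.00318), triadin, Trdn (1.43 ± 0.16, adjusted p = 0.000815), and the muscle sodium channel Scn4a (1.39 ± 0.22, adjusted p = 0.00256) rose too.

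Calcium pumps and buffers followed with 8 of 15 genes higher and 1 lower, at a median of 0.52. The count of lower genes became 0 without Cry2 knockdown day 3 or control day 5 and 2 without control day 3. Atp2a1, the fast-fibre pump SERCA1, was at 546, 668 and 354 CPM at day 3 and 1062, 1351 and 1139 CPM at day 5 (log2 fold change 1.23 ± 0.17, adjusted p = 0.00168), with 21.9% of its exon bases shared with another gene. Atp2a2, the slow and cardiac pump SERCA2, was at 704, 811 and 796 CPM at day 3 and 1096, 1316 and 1591 CPM at day 5 (log2 fold change 0.78 ± 0.11, adjusted p = 0.00155). Both were higher at day 5 in every genotype, with days apart. The kinase gene Camk2a (0.98 ± 0.13, adjusted p = 0.00147) and Stim1, the sensor of store depletion (0.62 ± 0.10, adjusted p = 0.00319), rose.

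At the future synapse, 9 of 16 genes rose and 1 fell, at a median of 0.52; 5 rose without Cry1 knockdown day 3 and 5 without Cry2 knockdown day 5. The number lower became 0 without any 1 of Cry1 knockdown day 3, Cry1 knockdown day 5, Cry2 knockdown day 3, Cry2 knockdown day 5 and control day 3. The receptor is a pentamer whose gamma subunit is fetal and whose epsilon subunit is adult. Chrne was undetected at day 0 in all 3 libraries, and its day 3 values stood for 2 or 3 reads each. Chrng, the gamma subunit, also rose, at 384, 447 and 331 CPM at day 3 and 701, 719.9 and 749 CPM at day 5 (log2 fold change 0.93 ± 0.26, adjusted p = 0.0268), with adjusted p = 0.108 without Cry1 knockdown day 3, 0.0954 without Cry2 knockdown day 3, 0.131 without Cry2 knockdown day 5 and 0.103 without control day 5. Chrnd, the delta subunit, was at 225, 256 and 166 CPM at day 3 and 427, 436 and 379 CPM at day 5 (log2 fold change 0.95 ± 0.13, adjusted p = 0.00163). Per kilobase of exon the epsilon transcript reached 2.83 CPM at day 5 and the gamma transcript 174 CPM, so the fetal form remained the more abundant. Musk, the receptor kinase of the synapse (0.55 ± 0.11, adjusted p = 0.00627), its nerve- and muscle-derived activator Agrn (0.49 ± 0.10, adjusted p = 0.00718) and utrophin, Utrn (0.72 ± 0.08, adjusted p = 0.000879), rose.

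The Chrne promoter is shown because the gene had the largest rise of any synaptic gene and because its start region is known for an E-box and an N-box element. It is the RefSeq window from 250 bases before to 50 bases after the start (GRCm38.p6, chr11:70619145-70619444, minus strand), with the E-box CAGCTG and the N-box core TTCCGG, here on the reverse strand as CCGGAA, in capitals.
Chrne: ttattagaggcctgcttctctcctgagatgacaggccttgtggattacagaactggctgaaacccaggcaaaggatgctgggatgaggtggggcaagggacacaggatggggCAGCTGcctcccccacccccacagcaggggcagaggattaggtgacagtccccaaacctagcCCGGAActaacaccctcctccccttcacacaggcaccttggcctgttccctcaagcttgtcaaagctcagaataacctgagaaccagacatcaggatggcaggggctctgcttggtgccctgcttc
The E-box lies 138 bases before the start and the N-box core 76 bases before it. Searched on both strands, CAGCTG, which is its own reverse complement, was found in 5 of the 11 synaptic genes with a window and in 18.2% of the 9315 tested genes with one. TTCCGG was found in 1 of 11, Chrne itself, and in 32.3% of tested genes.

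Dystrophin-complex and costamere genes, which anchor the fibre's membrane, rose in 7 of 19 cases and fell in none, at a median of 0.24. Beside Dmd, the membrane repair gene Dysf was at 66.7, 93.3 and 70.9 CPM at day 3 and 132, 147 and 129 CPM at day 5 (log2 fold change 0.83 ± 0.10, adjusted p = 0.000977). Cav3, muscle caveolin, rose (0.91 ± 0.15, adjusted p = 0.00331), as did the laminin chain gene Lama2 (0.90 ± 0.17, adjusted p = 0.00594) and dystroglycan, Dag1 (0.43 ± 0.09, adjusted p = 0.00786). The sarcoglycans Sgca (0.23 ± 0.10, adjusted p = 0.103) and Sgcb (0.24 ± 0.08, adjusted p = 0.0605) did not pass the threshold.

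Of the myogenic transcription factors and their partners, 6 of 20 rose and 2 fell, and 3 rose without Cry2 knockdown day 3 or without control day 5. The number that fell became 1 without any 1 of Cry1 knockdown day 3, Cry1 knockdown day 5, Cry2 knockdown day 3, control day 0, control day 3 and control day 5. Mef2c, a partner of the MyoD family, was at 119, 343 and 102 CPM at day 3 and 391, 633 and 336 CPM at day 5 (log2 fold change 1.43 ± 0.18, adjusted p = 0.00128), with the Cry1 knockdown highest on both days and the days overlapping. Myf6, the late member of the family also called MRF4, was at 0.840, 1.83 and 1.06 CPM at day 3 and 5.56, 3.71 and 7.57 CPM at day 5 (log2 fold change 2.11 ± 0.44, adjusted p = 0.00878), with adjusted p = 0.062 without Cry2 knockdown day 3, 0.0575 without Cry2 knockdown day 5 and 0.0502 without control day 5. Myog, myogenin, was at 682, 801 and 557 CPM at day 3 and 959, 999.5 and 717 CPM at day 5 and did not pass the threshold (0.40 ± 0.31, adjusted p = 0.358). Eya4, a coactivator of homeobox factors, rose (0.94 ± 0.11, adjusted p = 0.000813). Pax7, the marker of reserve and satellite cells, was at 10.2, 16.0 and 10.6 CPM at day 3 and 4.08, 8.67 and 7.0 CPM at day 5 (log2 fold change -0.93 ± 0.20, adjusted p = 0.0101).

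Fusion genes gave 1 higher and 4 lower of 16 tested, and the 1 higher became 0 without any 1 of Cry2 knockdown day 3, Cry2 knockdown day 5 and control day 5. Cdh15, M-cadherin, the adhesion molecule of fusing myoblasts, was at 568, 511 and 474 CPM at day 3 and 255, 341 and 279 CPM at day 5 (log2 fold change -0.84 ± 0.11, adjusted p = 0.0015), with every day 5 library below every day 3 library. Jam3 (-0.72 ± 0.14, adjusted p = 0.00663) and the tetraspanin gene Cd9 (-0.58 ± 0.13, adjusted p = 0.0108) fell. The fusogen Mymx was at 124, 138 and 136 CPM at day 3 and 130.1, 127 and 96.8 CPM at day 5 and did not pass the threshold (-0.18 ± 0.19, adjusted p = 0.495).

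Muscle energy genes rose in 12 of 23 cases and fell in 1, at a median of 0.48; 7 rose without Cry2 knockdown day 3, without Cry2 knockdown day 5 or without control day 5. Pygm, muscle glycogen phosphorylase, was at 163, 188 and 129 CPM at day 3 and 341, 352 and 316 CPM at day 5 (log2 fold change 1.09 ± 0.12, adjusted p = 0.00087). Cox6a2, the muscle isoform of a cytochrome c oxidase subunit, was at 74.2, 65.0 and 52.7 CPM at day 3 and 146, 149 and 134 CPM at day 5 (log2 fold change 1.17 ± 0.14, adjusted p = 0.000919). Days were apart in all genotypes for both. Hexokinase 2, Hk2 (1.14 ± 0.16, adjusted p = 0.00157), muscle phosphofructokinase, Pfkm (0.84 ± 0.11, adjusted p = 0.00128), and the insulin-regulated glucose transporter GLUT4, Slc2a4 (1.98 ± 0.29, adjusted p = 0.00191), rose. Ckm, muscle creatine kinase, was at 217, 409.9 and 219.6 CPM at day 3 and 256, 352 and 260.3 CPM at day 5 (0.09 ± 0.16, adjusted p = 0.686) and did not pass the threshold. Ldha, lactate dehydrogenase A, was at 1134, 1156 and 1267 CPM at day 3 and 549, 641 and 786 CPM at day 5 and fell (-0.86 ± 0.11, adjusted p = 0.0012).

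Glycolytic and hypoxia-regulated genes fell in 11 of 22 cases and rose in 2, at a median of -0.46, with 7 lower and 2 higher without Cry1 knockdown day 3 and 4 higher without control day 3. Eno1, the broadly expressed enolase, was at 1445, 1624 and 1472 CPM at day 3 and 690.2, 857 and 765 CPM at day 5 (log2 fold change -0.98 ± 0.10, adjusted p = 0.000673). Pfkl, the liver-type phosphofructokinase, was at 234, 209.5 and 232 CPM at day 3 and 105, 108 and 148 CPM at day 5 (log2 fold change -0.92 ± 0.10, adjusted p = 0.000812), the opposite direction to Pfkm. The glucose transporter GLUT1, Slc2a1, was at 138, 143 and 134 CPM at day 3 and 76.0, 79.9 and 98.0 CPM at day 5 (log2 fold change -0.72 ± 0.10, adjusted p = 0.00147), the opposite direction to Slc2a4. Slc16a3, a lactate exporter (-1.11 ± 0.15, adjusted p = 0.00143), Pgk1 (-0.59 ± 0.09, adjusted p = 0.00249) and Bnip3 (-0.76 ± 0.13, adjusted p = 0.00335) fell as well. Per kilobase of exon Slc2a1 went from 39.5 to 24.1 CPM and Slc2a4 from 0.365 to 1.45 CPM, so GLUT1 remained far above GLUT4.

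Nuclear genes of oxidative phosphorylation fell in 17 of 30 cases and rose in none, at a median of -0.30. Sdhd, an anchor of complex II, was at 139, 162 and 175 CPM at day 3 and 99.4, 104 and 106 CPM at day 5 (log2 fold change -0.61 ± 0.08, adjusted p = 0.00147). Cytochrome c, Cycs, was at 173, 194 and 180.4 CPM at day 3 and 113, 142 and 129 CPM at day 5 (log2 fold change -0.52 ± 0.08, adjusted p = 0.00197). The changes were small and the days did not overlap for either gene. Of 11 mitochondrially encoded genes 2 rose, namely mt-Cytb and mt-Nd4, and none fell, against 15.1% and 13.5% of all genes tested. The number higher became 0 without any 1 of Cry1 knockdown day 3, Cry1 knockdown day 5, control day 3 and control day 5 and 1 without control day 0, and 5 after the trend with exon length, described below, was taken out. The regulators of mitochondrial biogenesis gave 4 higher and 1 lower of 17, with Esrrg the largest rise. The 1 lower became 0 without any 1 of Cry1 knockdown day 3, Cry1 knockdown day 5, Cry2 knockdown day 3 and Cry2 knockdown day 5. Fatty acid genes gave 5 higher and 3 lower of 19, the 3 becoming 1 without any 1 of Cry1 knockdown day 3, Cry1 knockdown day 5, Cry2 knockdown day 3, Cry2 knockdown day 5 and control day 5. Fatty acid uptake genes Cd36 (1.37 ± 0.24, adjusted p = 0.00407), Fabp3 (0.87 ± 0.15, adjusted p = 0.00404) and Lpl (0.73 ± 0.14, adjusted p = 0.00695) rose, and the Cd36 days overlapped.

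Genes of cell division fell further after day 3. All 30 tested mitosis genes were called lower, at a median of -1.10 with log2 fold changes from -1.55 to -0.47. Summed over the list they stood at 4418, 4461 and 3743 CPM at day 0, 886, 887 and 732 CPM at day 3 and 437, 425 and 386 CPM at day 5. Cdk1, the kinase that drives entry to mitosis, was at 45.3, 39.7 and 41.1 CPM at day 3 and 18.9, 18.6 and 16.6 CPM at day 5 (log2 fold change -1.22 ± 0.10, adjusted p = 0.000562). Ccnb2, cyclin B2, was at 24.0, 24.1 and 20.3 CPM at day 3 and 9.27, 9.91 and 8.13 CPM at day 5 (log2 fold change -1.32 ± 0.11, adjusted p = 0.000562). Top2a, the topoisomerase that untangles replicated DNA, was at 100.1, 89.3 and 77.9 CPM at day 3 and 41.9, 45.3 and 39.9 CPM at day 5 (log2 fold change -1.07 ± 0.09, adjusted p = 0.000562). For these 3 genes the genotypes lay close together on each day and the days did not overlap. Birc5 (-1.55 ± 0.14, adjusted p = 0.000562) and Aurka (-1.42 ± 0.13, adjusted p = 0.000562) fell in the same range.

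DNA replication genes fell in 26 of 30 cases and rose in none, at a median of -0.99. Uhrf1, which carries DNA methylation through replication, was at 29.2, 36.3 and 22.7 CPM at day 3 and 5.75, 12.4 and 6.62 CPM at day 5 (log2 fold change -1.84 ± 0.17, adjusted p = 0.000562). Mcm4, of the replicative helicase, was at 39.5, 42.2 and 30.7 CPM at day 3 and 14.8, 18.9 and 15.9 CPM at day 5 (log2 fold change -1.17 ± 0.12, adjusted p = 0.000645), and Mcm10, an initiation factor, fell (-1.74 ± 0.22, adjusted p = 0.00128). Tyms, thymidylate synthase, which supplies thymidine nucleotide, fell too (-1.35 ± 0.14, adjusted p = 0.000678).

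Promoters of a mitosis and a replication gene are printed because most genes of these 2 lists fell and because elements of their promoters are known. Both are RefSeq windows of GRCm38.p6 from 250 bases before to 50 after the start, Cdk1 at chr10:69352863-69353162 on the minus strand and 1 of 2 windows of Uhrf1 at chr17:56304063-56304362 on the plus strand. Capitals mark every match of 3 motifs, the CHR element TTTGAA, the CCAAT box (on the reverse strand ATTGG) and the E2F core TTTCGC. The Uhrf1 window was picked as the one holding most of the motifs marked, or the first listed if equal.
Cdk1: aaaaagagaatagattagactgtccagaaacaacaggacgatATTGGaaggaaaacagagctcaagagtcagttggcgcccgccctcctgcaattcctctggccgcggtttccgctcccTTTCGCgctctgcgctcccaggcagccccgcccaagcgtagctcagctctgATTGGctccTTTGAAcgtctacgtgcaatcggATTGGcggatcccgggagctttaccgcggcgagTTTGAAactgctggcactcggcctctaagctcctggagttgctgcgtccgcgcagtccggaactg
Uhrf1: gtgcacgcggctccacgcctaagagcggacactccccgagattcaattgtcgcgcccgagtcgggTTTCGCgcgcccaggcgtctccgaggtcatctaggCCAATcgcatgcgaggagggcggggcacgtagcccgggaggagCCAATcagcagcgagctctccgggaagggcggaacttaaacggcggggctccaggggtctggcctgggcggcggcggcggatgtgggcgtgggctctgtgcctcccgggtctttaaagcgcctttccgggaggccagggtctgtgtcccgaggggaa
Cdk1 holds all 3 motifs and Uhrf1 holds the E2F core and the CCAAT box. Both strands were searched, and in neither window do matches overlap. TTTGAA was found in 20 of 26 mitosis genes with a window (76.9%), in 4 of 25 replication genes (16%) and in 14.1% of the 9315 tested genes with a window. TTTCGC was found in 12 of 25 replication genes (48%), in 2 of 26 mitosis genes (7.69%) and in 7.60% of tested genes. The CCAAT box was found in 22 of 26 mitosis genes (84.6%), in 17 of 25 replication genes (68%) and in 43.1% of tested genes.

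Regulators of the G1 phase gave 1 gene higher and 5 lower of 13, and the number higher became 2 without control day 5 and 3 without control day 3. Cdk4, a G1 kinase, was at 275, 216 and 285 CPM at day 3 and 153, 129.7 and 162 CPM at day 5 (log2 fold change -0.80 ± 0.07, adjusted p = 0.000562), with 19.7% of its exon bases shared with another gene. The cyclins Ccne1 (-1.11 ± 0.19, adjusted p = 0.00348) and Ccne2 (-1.46 ± 0.19, adjusted p = 0.00143) and the F-box protein gene Skp2 (-1.09 ± 0.13, adjusted p = 0.00105) fell. Myc, a growth regulator that had been lower at day 3 than at day 0, was the 1 gene that rose, at 38.8, 35.1 and 22.4 CPM at day 3 and 56.0, 76.6 and 56.9 CPM at day 5 (log2 fold change 0.98 ± 0.14, adjusted p = 0.00178). Ccnd1, cyclin D1, which the series is about, was at 74.4, 55.7 and 24.1 CPM at day 3 and 30.4, 35.9 and 23.1 CPM at day 5 and did not pass the threshold (-0.75 ± 0.26, adjusted p = 0.0602). Tmem176b, the other transcript named in the title of the series, was at 1.51, 10.8 and 1.91 CPM at day 3 and 1.11, 6.01 and 0.378 CPM at day 5 and did not pass it either (-0.94 ± 0.40, adjusted p = 0.107). Among CDK inhibitors and pocket proteins 3 of 8 fell and none rose, and 1 fell without Cry2 knockdown day 3 or Cry2 knockdown day 5. Cdkn1a, the inhibitor p21 that rises early in differentiation, was at 1533, 1572 and 1382 CPM at day 3 and 1560.3, 1984 and 1685 CPM at day 5 (0.21 ± 0.10, adjusted p = 0.148) and did not pass the threshold, in contrast to Cdkn1c.

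Of 14 clock repressors and output factors 4 rose and none fell, and 2 rose without any 1 of Cry1 knockdown day 3, Cry1 knockdown day 5, Cry2 knockdown day 3 and Cry2 knockdown day 5. Tef, an output factor, was at 144, 229 and 140.2 CPM at day 3 and 259, 295 and 225 CPM at day 5 (log2 fold change 0.63 ± 0.10, adjusted p = 0.00291), with days overlapping because the Cry1 knockdown was high on both. Cry2 rose (0.67 ± 0.15, adjusted p = 0.013), with adjusted p = 0.084 without Cry1 knockdown day 3 and 0.0696 without Cry1 knockdown day 5, and Cry1 did not pass the threshold (0.23 ± 0.21, adjusted p = 0.455). Of 11 activators and regulators 4 rose and none fell. Rora, an activator of the clock loop, was at 4.37, 6.82 and 1.69 CPM at day 3 and 8.71, 17.5 and 9.27 CPM at day 5 (log2 fold change 1.47 ± 0.27, adjusted p = 0.00486).

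Id and Notch genes, which hold back differentiation, gave 2 higher and 7 lower of 16. The 2 higher became 1 without any 1 of Cry1 knockdown day 3, Cry1 knockdown day 5, Cry2 knockdown day 3 and Cry2 knockdown day 5. Hey1, a Notch target, was at 22.8, 25.6 and 19.7 CPM at day 3 and 6.30, 10.1 and 7.57 CPM at day 5 (log2 fold change -1.52 ± 0.16, adjusted p = 0.000671). Hes1 (-0.54 ± 0.10, adjusted p = 0.00631), Heyl (-0.94 ± 0.18, adjusted p = 0.00664) and Id2, an inhibitor of myogenic factors (-1.21 ± 0.24, adjusted p = 0.0073), fell, and Spry1, an inhibitor of growth factor signalling, rose (0.90 ± 0.12, adjusted p = 0.00154). Growth factor genes of the insulin-like axis gave 4 higher and 1 lower of 14, with 2 higher without Cry1 knockdown day 3 and 2 after the length trend was removed. The 1 lower became 0 without any 1 of Cry1 knockdown day 5, Cry2 knockdown day 3 and control day 3. Insr, the insulin receptor, was at 43.8, 33.6 and 32.4 CPM at day 3 and 84.0, 65.8 and 70.4 CPM at day 5 (log2 fold change 1.00 ± 0.13, adjusted p = 0.00143), days apart.

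Genes of the TGF-beta, BMP and myostatin pathways gave 8 higher and 1 lower of 18. The 8 became 4 without Cry1 knockdown day 5, 5 without Cry2 knockdown day 3, 4 without control day 3 and 4 without control day 5. Tgfbr1, a type I receptor, was at 28.9, 26.8 and 29.0 CPM at day 3 and 45.6, 55.4 and 53.5 CPM at day 5 (log2 fold change 0.87 ± 0.10, adjusted p = 0.000864). Grem1, a BMP antagonist, was at 28.9, 30.9 and 27.1 CPM at day 3 and 69.1, 46.0 and 72.3 CPM at day 5 (log2 fold change 1.09 ± 0.15, adjusted p = 0.00147), after 267, 240.1 and 255 CPM at day 0. Bmp4, a ligand that Grem1 binds, was at 3.19, 3.66 and 2.96 CPM at day 3 and 21.9, 10.3 and 5.86 CPM at day 5 (log2 fold change 1.86 ± 0.34, adjusted p = 0.00497). Days were apart for all 3. Gdf11, a relative of myostatin, fell (-0.63 ± 0.08, adjusted p = 0.00113).

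Wnt genes gave 4 higher and 1 lower of 14, the 4 becoming 2 without Cry1 knockdown day 5, 2 without Cry2 knockdown day 3 and 1 without Cry2 knockdown day 5. The 1 lower became 0 without any 1 of Cry1 knockdown day 5, Cry2 knockdown day 3, Cry2 knockdown day 5, control day 0, control day 3 and control day 5. Immediate early genes gave 2 higher and 3 lower of 21, against 15.1% and 13.5% of all genes tested, with 4 higher without control day 3. Klf2, a shear-responsive factor (-0.93 ± 0.10, adjusted p = 0.000692), fell and Nr4a1, a nuclear receptor induced by activity (1.01 ± 0.13, adjusted p = 0.0013), rose. Of 17 chemokine and interleukin genes 4 rose and 1 fell. That 1 became 0 without any 1 of Cry1 knockdown day 3, Cry2 knockdown day 3, Cry2 knockdown day 5, control day 3 and control day 5. Il6st, the shared receptor gp130, was at 242, 237 and 179 CPM at day 3 and 431, 468 and 409 CPM at day 5 (log2 fold change 1.00 ± 0.09, adjusted p = 0.000562), and its partner Il6ra rose (0.90 ± 0.14, adjusted p = 0.00249). Interferon genes gave 2 higher and 1 lower of 15, against 15.1% and 13.5% of all genes tested, with Irf1 lower (-1.07 ± 0.17, adjusted p = 0.00283). The number higher became 0 without any 1 of Cry1 knockdown day 3, Cry1 knockdown day 5, Cry2 knockdown day 3 and control day 3 and 1 without Cry2 knockdown day 5 or control day 5, and the number lower 2 without control day 3. Targets of p53 gave 4 higher and 3 lower of 16, with 1 lower without Cry1 knockdown day 5. Gadd45a, a stress-induced growth arrest gene, was at 173, 112 and 81.1 CPM at day 3 and 339, 406 and 387 CPM at day 5 (log2 fold change 1.66 ± 0.22, adjusted p = 0.00149). Ccng1, cyclin G1, was at 207, 194 and 246 CPM at day 3 and 127, 89.7 and 113 CPM at day 5 (log2 fold change -0.97 ± 0.10, adjusted p = 0.000611).

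Of 24 proteoglycan and fibroblast-type matrix genes 13 rose and 1 fell. Mmp2, a gelatinase, was at 377, 383 and 354 CPM at day 3 and 687, 723 and 599.8 CPM at day 5 (log2 fold change 0.85 ± 0.08, adjusted p = 0.000562). Fn1, fibronectin, was at 9788, 6748 and 5732 CPM at day 3 and 17291, 13249 and 15015 CPM at day 5 (log2 fold change 1.04 ± 0.20, adjusted p = 0.00631). Thbs1, thrombospondin 1, was at 928, 919 and 1013 CPM at day 3 and 3809.9, 2244 and 1937 CPM at day 5 (log2 fold change 1.44 ± 0.25, adjusted p = 0.00414). Days were apart in each of the 3. Timp1, an inhibitor of matrix proteases, was the 1 gene that fell (-0.67 ± 0.07, adjusted p = 0.000671). The number lower was 2 without any 1 of Cry1 knockdown day 0, Cry2 knockdown day 0 and Cry2 knockdown day 5. Collagens rose in 10 of 19 cases and fell in 1, at a median of 0.43, but in 5 without Cry1 knockdown day 3, in 4 without Cry2 knockdown day 3 and in 5 after the trend with exon length was removed. The 1 lower became 0 without any 1 of Cry1 knockdown day 3, control day 3 and control day 5. Col12a1, a fibril-associated collagen, was at 218, 240.3 and 152 CPM at day 3 and 609, 566 and 417 CPM at day 5 (log2 fold change 1.4 ± 0.20, adjusted p = 0.00194).

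Smooth muscle genes and targets of the YAP coactivator gave 3 higher and 4 lower of 14, with 1 lower without Cry1 knockdown day 5 and 2 without Cry2 knockdown day 3. Amotl2, a YAP target, was at 88.0, 101 and 81.1 CPM at day 3 and 232, 203 and 175 CPM at day 5 (log2 fold change 1.17 ± 0.12, adjusted p = 0.000611). Acta2, smooth muscle actin, was at 2004, 2325 and 3136 CPM at day 3 and 1409, 1154 and 1415 CPM at day 5 and fell (-0.90 ± 0.20, adjusted p = 0.0101), with adjusted p = 0.0524 without Cry1 knockdown day 5.

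Markers of other cells were read beside these groups. All 5 tested fibroblast markers rose, and 3 rose without any 1 of Cry1 knockdown day 3, Cry1 knockdown day 5, control day 3 and control day 5. Their sum was 2814, 3896 and 2081 CPM at day 3 and 4570.1, 6322 and 3842 CPM at day 5, while the defining marker Thy1 was at 0 in all libraries. Their part in the rise of the matrix genes was not tested. Endothelial and blood markers summed to 1.06 to 2.97 CPM over the 6 libraries, none was tested and Hbb-bs was at 0. Of adipocyte markers 3 of 7 could be tested and Lpl and Cebpa passed the threshold, Cebpa at 2.35, 3.16 and 2.33 CPM at day 3 and 11.5, 7.43 and 1.89 CPM at day 5 (1.33 ± 0.44, adjusted p = 0.0497) with adjusted p = 0.0801 without Cry1 knockdown day 3, 0.17 without Cry1 knockdown day 5, 0.0806 without Cry2 knockdown day 3, 0.0782 without control day 0, 0.226 without control day 3 and 0.211 without control day 5, and Adipoq was at 0. Of 4 tested smooth muscle markers only Acta2 was called, lower (0 without Cry1 knockdown day 5), and Myh11 was under the depth limit. Of the neural markers Tubb3 (-1.71 ± 0.16, adjusted p = 0.000562) and Map2 (-0.88 ± 0.11, adjusted p = 0.0013) fell, with Rbfox3 at 0. Runx2 (0.20 ± 0.12, adjusted p = 0.252) and Sox9 (-0.18 ± 0.11, adjusted p = 0.234), for bone and cartilage, did not pass the threshold. Of the 9 skeletal muscle markers, Ttn rose, Cdh15 fell and 7 did not pass. The number higher became 0 without any 1 of Cry1 knockdown day 3, Cry2 knockdown day 3, Cry2 knockdown day 5 and control day 5 and 2 without Cry1 knockdown day 5 and 4 without Cry1 knockdown day 0 or Cry2 knockdown day 0, and 0 after the length trend was removed.

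Among atrophy and FoxO targets 7 of 20 rose and 2 fell, with 3 higher without Cry1 knockdown day 5 and 2 without Cry2 knockdown day 3. Mt1, metallothionein 1, was at 27.7, 45.4 and 32.0 CPM at day 3 and 46.2, 82.6 and 76.6 CPM at day 5 (log2 fold change 0.96 ± 0.14, adjusted p = 0.00202), and the autophagy receptor gene Sqstm1 rose (0.49 ± 0.08, adjusted p = 0.00298).

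Genes of the amino acid stress response, which the factor ATF4 drives when amino acids run short, were the list whose change from day 3 to day 5 differed most with genotype. Of 23 tested members 10 rose and none fell, at a median of 1.10. The median log2 ratio of day 5 to day 3 was -0.10 in control cells, 1.23 in the Cry1 knockdown and 2.10 in the Cry2 knockdown. The ratio was lowest in the control and highest in the Cry2 knockdown in 23 of 23 genes, and it was positive in 11 genes in the control and in 23 in either knockdown. Over all genes tested the median ratios were -0.003, 0.024 and -0.010. The share of all genes with the same order was not worked out. These ratios rest on 1 library per genotype and day, so the order has no replicate check. All 23 genes were read in the same libraries, so their number does not repeat this order or the day 3 order given next.

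The genotypes stood apart at day 3, not at day 5. At day 3 the control was highest in 23 of 23 genes and the Cry2 knockdown lowest in 22, and the median spread between the highest and the lowest genotype was 1.96 on the log2 scale, against 0.33 at day 0 and 0.33 at day 5. Asns, asparagine synthetase, was at 302, 166 and 46.6 CPM at day 3 and 359, 412 and 362 CPM at day 5 (log2 fold change 1.34 ± 0.41, adjusted p = 0.0403), with adjusted p = 0.0506 without Cry1 knockdown day 0, 0.113 without Cry1 knockdown day 3, 0.114 without Cry1 knockdown day 5 and 0.126 without Cry2 knockdown day 5. Trib3, a pseudokinase induced by ATF4, was at 153, 64.5 and 12.5 CPM at day 3 and 127, 243 and 210.1 CPM at day 5 and did not pass the threshold (1.55 ± 0.63, adjusted p = 0.0958). Vldlr, a lipoprotein receptor, was at 43.8, 24.1 and 9.10 CPM at day 3 and 80.6, 82.6 and 101 CPM at day 5 (log2 fold change 1.85 ± 0.37, adjusted p = 0.00715). Atf5, a factor of the same family, was at 218, 206 and 83.6 CPM at day 3 and 356, 400.5 and 352 CPM at day 5 (log2 fold change 1.19 ± 0.24, adjusted p = 0.00729). The days did not overlap for Asns, Vldlr and Atf5, and they overlapped for Trib3.

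The number of called members depended on single libraries. It was 4 without Cry1 knockdown day 3, 3 without Cry1 knockdown day 5, 6 without Cry2 knockdown day 3 and 3 without Cry2 knockdown day 5, and it was 23 without control day 3 and 21 without control day 5. In the test of whether the response of the Cry2 knockdown differed from that of the other genotypes, Aldh1l2, a mitochondrial folate enzyme, had the lowest p of the list. It was at 201, 145 and 48.1 CPM at day 3 and 353, 305 and 304 CPM at day 5, and the difference in log2 fold change was 1.72 ± 0.19 (SE, 1 library per genotype and day) with adjusted p = 0.112. For Asns the difference was 2.20 ± 0.42 with adjusted p = 0.792, and for Pck2, mitochondrial phosphoenolpyruvate carboxykinase, 1.76 ± 0.33 with adjusted p = 0.792. None of these passed the threshold.

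**Figure D4:**
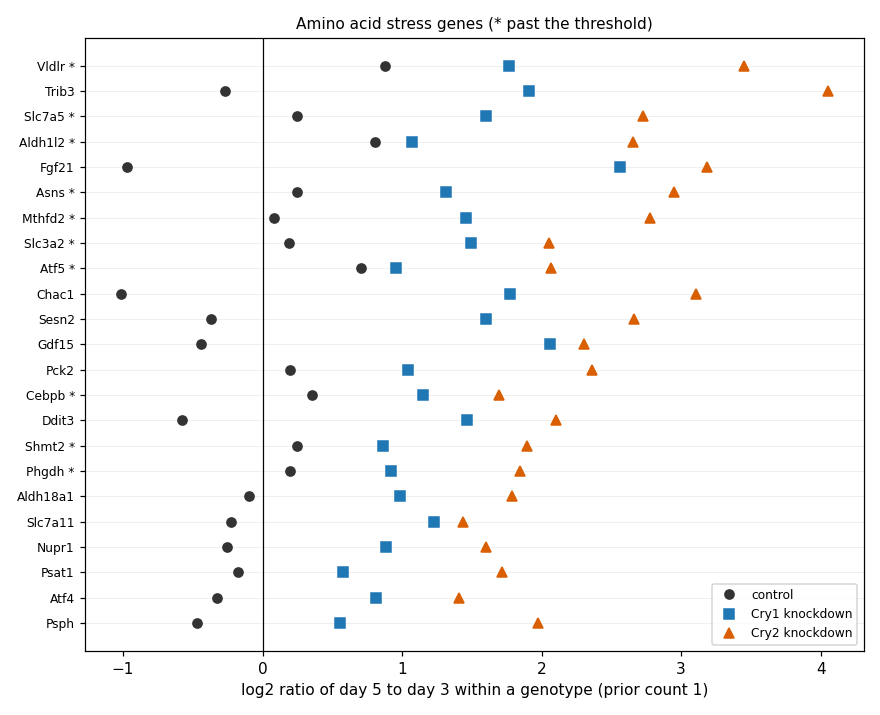
Log2 ratio of day 5 to day 3 within each genotype for 23 amino acid stress genes, 1 symbol per genotype, with a star at genes past the threshold. In every gene the control lies farthest left and the Cry2 knockdown farthest right.

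Promoters of Asns and Vldlr are shown because both genes rose and because the response element of ATF4 is known. They are RefSeq windows of GRCm38.p6, Asns at chr6:7693160-7693459 on the minus strand and 1 of 2 windows of Vldlr at chr19:27216770-27217069 on the plus strand, with the composite element TGATGNAA in capitals, on the reverse strand as TTGCATCA in Vldlr. The Vldlr window was picked as the one holding the element, or the first listed if both did.
Asns: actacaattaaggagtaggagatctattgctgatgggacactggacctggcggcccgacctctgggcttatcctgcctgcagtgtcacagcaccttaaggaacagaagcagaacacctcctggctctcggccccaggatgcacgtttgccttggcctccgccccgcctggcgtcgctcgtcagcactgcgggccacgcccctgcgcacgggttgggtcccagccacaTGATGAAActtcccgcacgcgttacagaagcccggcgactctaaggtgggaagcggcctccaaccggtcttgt
Vldlr: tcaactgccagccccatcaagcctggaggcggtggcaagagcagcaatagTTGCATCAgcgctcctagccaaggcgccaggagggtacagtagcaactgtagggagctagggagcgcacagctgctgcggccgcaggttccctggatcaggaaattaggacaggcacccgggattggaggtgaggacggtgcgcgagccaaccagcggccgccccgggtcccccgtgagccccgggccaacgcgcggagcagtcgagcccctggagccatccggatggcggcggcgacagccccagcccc
The element starts 23 bases before the start of Asns and 200 bases before that of Vldlr. It was found on either strand in 8 of 21 members with a window (38.1%), namely Trib3, Asns, Chac1, Slc7a11, Vldlr, Nupr1, Fgf21 and Pck2, and in 2.66% of tested genes with one.

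Chaperones of the endoplasmic reticulum fell in 13 of 20 cases and rose in 3, at a median of -0.40. Their median log2 ratio of day 5 to day 3 was -0.20 in control cells, -0.40 in the Cry1 knockdown and -0.48 in the Cry2 knockdown. That was the opposite direction to the amino acid stress genes in both knockdowns but not in the control, where those genes had a median of -0.10. The 13 became 8 without Cry1 knockdown day 3 or Cry1 knockdown day 5 and 7 without Cry2 knockdown day 5. Calr, calreticulin, was at 889.6, 987 and 1248 CPM at day 3 and 571, 678 and 672 CPM at day 5 (log2 fold change -0.70 ± 0.11, adjusted p = 0.00319). Hsp90b1, the chaperone GRP94, was at 662, 633 and 719 CPM at day 3 and 473, 454 and 442 CPM at day 5 (log2 fold change -0.56 ± 0.08, adjusted p = 0.00215). Sdf2l1, a cochaperone, was at 12.4, 16.5 and 27.7 CPM at day 3 and 4.82, 6.37 and 6.24 CPM at day 5 (log2 fold change -1.65 ± 0.24, adjusted p = 0.00177). Days were apart for all 3. The protein disulfide isomerases Pdia3 (-0.61 ± 0.09, adjusted p = 0.00223) and Pdia4 (-0.68 ± 0.11, adjusted p = 0.00315) and the secreted Manf (-0.88 ± 0.12, adjusted p = 0.0017) fell.

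Cholesterol and fatty acid synthesis fell in 19 of 29 cases and rose in 1, at a median of -0.70, with 12 lower without Cry1 knockdown day 3. The 1 higher became 0 without any 1 of Cry2 knockdown day 3, Cry2 knockdown day 5 and control day 5. Hmgcs1, the first committed enzyme of the mevalonate pathway, was at 406, 603 and 359 CPM at day 3 and 181, 313 and 225 CPM at day 5 (log2 fold change -0.92 ± 0.16, adjusted p = 0.00415) after 264, 243 and 241 CPM at day 0. Idi1, the isomerase of the isoprenoid unit, was at 166, 236 and 180.4 CPM at day 3 and 56.2, 118 and 79.8 CPM at day 5 (log2 fold change -1.22 ± 0.19, adjusted p = 0.00257). Nsdhl, a sterol enzyme, was at 132, 186 and 119.6 CPM at day 3 and 60.8, 82.2 and 62.2 CPM at day 5 (log2 fold change -1.08 ± 0.14, adjusted p = 0.00131). All 3 were above their day 0 range at day 3, and at day 5 every genotype was below its own day 3 value. Stard4 (-1.26 ± 0.15, adjusted p = 0.00105), Mvk (-0.96 ± 0.13, adjusted p = 0.0015), the fatty acid elongase Elovl6 (-1.24 ± 0.17, adjusted p = 0.00165) and Acly (-0.76 ± 0.12, adjusted p = 0.00235) fell too.

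The Hmgcs1 promoter is printed as the start of that pathway, the RefSeq window of GRCm38.p6 at chr13:119690101-119690400 on the plus strand. Capitals mark the sterol element TCACNCCAC and the CCAAT box, here as ATTGG.
Hmgcs1: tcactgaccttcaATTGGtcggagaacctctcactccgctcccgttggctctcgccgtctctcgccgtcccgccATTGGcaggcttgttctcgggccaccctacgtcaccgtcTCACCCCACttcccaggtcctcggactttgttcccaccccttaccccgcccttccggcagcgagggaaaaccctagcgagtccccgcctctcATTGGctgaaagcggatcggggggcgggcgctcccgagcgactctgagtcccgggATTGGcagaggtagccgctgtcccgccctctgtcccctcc
The sterol element starts 137 bases before the start and was found, on either strand, in this gene alone of 19 members with a window, against 1.41% of tested genes. The CCAAT box was found in 17 of 19 (89.5%) against 43.1% of tested genes, and none of its matches in Hmgcs1 overlaps the sterol element.

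Ribosomal protein genes fell in 11 of 30 cases and rose in none, at a median of -0.27, but 4 fell without Cry1 knockdown day 3, 2 without Cry2 knockdown day 3, 1 without Cry2 knockdown day 5 and 3 without control day 5. After the length trend was removed, 2 fell. Rps19 was at 209, 242 and 206 CPM at day 3 and 169, 175 and 119 CPM at day 5 (log2 fold change -0.52 ± 0.10, adjusted p = 0.00633). Many of these genes have near-identical processed copies, and how the authors' counting split reads between them is not given in the sources used here.

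Splicing and RNA-binding regulators gave 6 higher and 1 lower of 23, with 3 higher without any 1 of Cry1 knockdown day 3, Cry1 knockdown day 5, Cry2 knockdown day 3, Cry2 knockdown day 5 and control day 5, and 3 after the length trend was removed. The 1 lower became 0 without Cry1 knockdown day 5 or Cry2 knockdown day 3. Rbm20, which regulates titin splicing, was at 116, 101 and 85.1 CPM at day 3 and 172, 169 and 164 CPM at day 5 (log2 fold change 0.74 ± 0.11, adjusted p = 0.00204). Mbnl1, a switch to adult splicing, did not pass the threshold (0.34 ± 0.12, adjusted p = 0.0644). Imprinted genes and noncoding RNAs gave 3 higher and 2 lower of 14, against 15.1% and 13.5% of all genes tested, with Cdkn1c the largest change. The 2 lower became 1 without any 1 of Cry1 knockdown day 3, Cry1 knockdown day 5 and Cry2 knockdown day 3.

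The response to the later days was compared between genotypes by an interaction of day with 1 knockdown. Neither contrast called a gene in edgeR's quasi-likelihood test (0 of 12752, or 0%, in each), at 462 genes with unadjusted p under 0.05 for the Cry2 knockdown and 292 for the Cry1 knockdown. DESeq2 called 7 and 4. With no filter on low counts edgeR called 21 and 74. For the Cry2 knockdown the lowest p was that of Polr2l, a small subunit shared by RNA polymerases, at 31.7, 30.3 and 51.9 CPM at day 3 and 31.5, 40.5 and 9.08 CPM at day 5, with a difference of -2.72 ± 0.28 and adjusted p = 0.112. Btg3, an antiproliferative gene, was at 30.6, 28.3 and 30.1 CPM at day 3 and 26.1, 31.0 and 2.27 CPM at day 5, a difference of -3.66 ± 0.39 with adjusted p = 0.112. In both the Cry2 knockdown at day 5 stood alone below the other 5 libraries. For the Cry1 knockdown the lowest p was that of Pgam1, a glycolytic mutase, at 317, 152 and 227 CPM at day 3 and 156, 243 and 106 CPM at day 5, a difference of 1.73 ± 0.26 with adjusted p = 0.429. Actn2, alpha-actinin of the Z-disc, was at 149, 455 and 97.0 CPM at day 3 and 323, 438 and 214 CPM at day 5, and was about 2 times higher at day 5 in control and Cry2 knockdown cells but not in the Cry1 knockdown, a difference of -1.18 ± 0.20 with adjusted p = 0.429. Myh7 had a difference of -1.05 ± 0.21 with adjusted p = 0.875.

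The change from day 3 to day 5 moved with the length of a gene's exons. In the 1274 genes with the shortest exons, 57 to 1366 bases in all, the median log2 fold change was -0.25, 3.06% of genes rose and 16.9% fell. In the 1274 with the longest, at least 9835 bases, it was 0.28, 39.2% rose and 3.45% fell. In each genotype the median was lowest in the former and highest in the latter. When the trend was removed library by library, an alternative chosen after the data were seen, 3128 genes were called, 1525 higher and 1603 lower, of which 2645 were called without it. Titin, with the longest exon sequence of the genes named, was no longer called, with adjusted p = 0.97. Myosin heavy chains gave 7 higher and 0 lower, mitosis genes 0 higher and 30 lower, excitation-contraction coupling genes 14 higher and 1 lower and oxidative phosphorylation genes 0 higher and 13 lower. The part of RNA quality or library preparation in the trend was not tested.

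**Figure D5:**
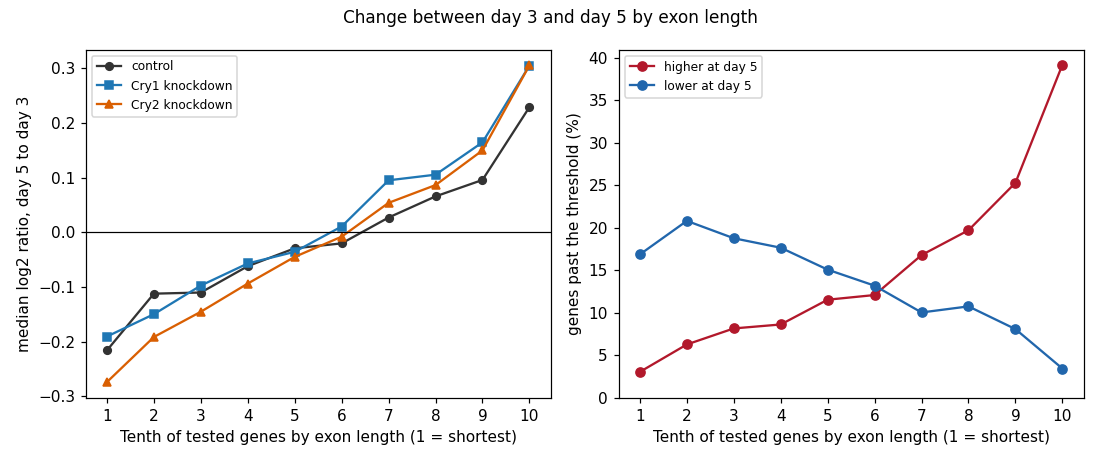
Median log2 fold change of day 5 over day 3 in 10 equal groups of genes ordered by exon length, for each genotype, and the percent of genes that rose or fell in each group. The medians climb from the shortest to the longest group in all 3 genotypes, and the percent that rose climbs from 3.06 to 39.2.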

How the data were processed

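PolyA RNA of C2C12 cells was made into TruSeq RNA v2 libraries, which do not mark strand, per the labels' protocols, and sequenced on a HiSeq2500, per the series' design text. The deposited values are raw read counts per Ensembl gene. The submitters' processing notes name CASAVA 1.8, HISAT2 2.0.2, featureCounts 1.4.6 of Subread and genome mm10; their settings are not given in the sources used here, so reads from overlapping genes, antisense partners and near-identical copies may be split in ways that cannot be told. Exon lengths and overlaps come from GENCODE M21 (GRCm38, the same assembly). Of 47728 gene identifiers, 47223 matched a symbol and 23515 had a count. Depth was 4731020 to 6412279 counts per library.

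Counts of all 9 libraries were fitted with edgeR 4.0.16 (R 4.3.3): TMM scaling, filterByExpr on day (12752 genes), an additive model of genotype and day with 4 residual degrees of freedom, the quasi-likelihood F test for day 5 minus day 3, and Benjamini-Hochberg adjustment. Genotype is the replicate block: libraries of a genotype carry the same knockdown or control label on each day, with 1 library per genotype and day, and whether they came from 1 culture is not given in the sources used here. Interactions of day with 1 knockdown left 2 residual degrees of freedom. Ratios within a genotype used a prior count of 1. The self-test on simulated counts recovered 53% of 200 genes changed 1.5-fold, 89.5% at 2-fold and 100% at 4-fold, and called 0 of 12505 genes with no change. Of its calls, 3.64% at 1.5-fold, 4.79% at 2-fold and 5.66% at 4-fold fell on unchanged genes. The simulated counts held no genotype effect and no trend with exon length, and only genes above a minimum mean count were changed. The recovered shares therefore do not carry over to genes with few counts or to responses that differ between genotypes. Nor do the shares of calls on unchanged genes carry over to the calls made on the data, where far more genes were called and the exon-length trend is present.

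Named genes are Cry1 and Cry2, the 14 largest called rises and falls (mean of at least 1 CPM, same direction in 3 genotypes), up to 6 members of lowest p in each list, and up to 8 genes of lowest p in each interaction. Some genes that this rule names are not reported here. Others (Tmem176b, Ccnd1, Myog, Mymx, Chrng, Cacna1s, Ckm, Acta1, Actc1, Trib3 and further list members) were named after their values were seen. Members and lists were chosen with earlier results of these data known. Alternatives were RLE factors, no filter, a filter of 1 CPM in 3 libraries, DESeq2 1.42.0, the 6 libraries alone, no genotype term, each library or genotype left out and, added after the data were seen, removal of the exon-length trend. Promoter windows are from the RefSeq table of GRCm38.p6.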

Additional observations from a re-analysis of the deposited data

How the results depend on the processing

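Each day has 3 libraries, 1 per genotype, so the error includes any difference between genotypes in the response, and small changes of genes with few counts are not detectable at this depth. DESeq2 called 2369 genes, 1032 of them lower, against 3638 and 1718 reported. Without the replicate block 2190 genes were called, 1132 higher and 1058 lower. With 1 library or 1 genotype left out the count ran from 1553 to 3739, with 871 to 1968 higher and 682 to 1771 lower. For a response that differs in the Cry2 knockdown DESeq2 called 7 genes and the fit with no filter on low counts 21, and for the Cry1 knockdown 4 and 74, against 0 reported in each. With the exon-length trend removed the called members became 5 for mitochondrially encoded genes, 5 for collagens, 2 for the insulin-like growth factor axis, 2 for ribosomal proteins, 3 for splicing regulators and 0 for skeletal muscle markers. With only the 6 libraries of days 3 and 5 they became 5 for imprinted genes and noncoding RNAs, 1 for adipocyte markers and 5 for skeletal muscle markers. With 1 genotype left out, the members called higher at day 5 ran from 3 to 6 for sarcomere assembly and chaperones (reported 5), 9 to 12 for excitation-contraction coupling (reported 14), 2 to 5 for MyoD family and partner factors (reported 6), 7 to 11 for muscle energy metabolism (reported 12) and 1 to 4 for mitochondrial biogenesis regulators (reported 4). For members called higher at day 5 the count was 0 to 2 for mitochondrially encoded (reported 2), 1 to 5 for clock repressors and outputs (reported 4), 0 to 5 for clock activators and regulators (reported 4), 3 to 7 for collagens (reported 10) and 8 to 14 for matrix proteoglycans and fibroblast (reported 13). For members called higher at day 5 the count was 2 to 4 for insulin-like growth factor axis (reported 4), 4 for TGF-beta, BMP and myostatin (reported 8), 1 to 4 for Wnt pathway (reported 4), 0 to 1 for interferon response (reported 2) and 1 to 5 for p53 targets (reported 4). For members called higher at day 5 the count was 3 to 6 for muscle atrophy and FoxO targets (reported 7), 1 to 23 for amino acid stress response (reported 10), 3 to 5 for splicing and RNA-binding regulators (reported 6), 1 to 4 for imprinted genes and noncoding RNAs (reported 3) and 1 to 2 for adipocyte markers (reported 2). For members called higher at day 5 the count was 0 to 3 for skeletal muscle markers (reported 1) and 3 to 5 for fibroblast markers (reported 5). With 1 genotype left out, the members called lower at day 5 ran from 1 to 4 for myoblast fusion (reported 4), 6 to 14 for oxidative phosphorylation (reported 17), 1 to 2 for CDK inhibitors and pocket proteins (reported 3), 4 to 6 for Id proteins and Notch (reported 7) and 1 to 3 for smooth muscle and YAP targets (reported 4). For members called lower at day 5 the count was 7 to 11 for endoplasmic reticulum chaperones (reported 13), 1 to 5 for cytosolic ribosomal proteins (reported 11) and 0 to 1 for smooth muscle markers (reported 1). Of 171 called genes tracked by name, 155 kept their call without each library in turn, and none reversed under any alternative run. Their calls were lost for 5 under DESeq2, 1 under the filter of 1 CPM in 3 libraries, 1 under RLE size factors, 2 without the length trend (Hspb1 and Ttn), 29 without the genotype term, 9 to 18 without a genotype and 0 to 9 without a library. With the 6 libraries alone 4 of the 167 still tested were lost. The sign turned only in genes that had not passed the threshold. Without the length trend the log2 fold change was 0.15 for Acta1, -0.0342 for Mbnl1 and 0.0242 for Mymx, and with 1 library or genotype left out it ran from -0.26 to 0.30 for Acta1, -0.0308 to 0.31 for Ckm, -0.33 to 0.017 for Mymx and -1.08 to 0.19 for Polr2l. The cause of these shifts was not tested.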

Other observations

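The families below were picked after their values had been seen, so their counts are a description. Tubulins, the subunits of microtubules, were called lower in 10 of 11 tested genes and higher in 0, at a median log2 fold change of -0.95. Tuba1a was at 1021, 1559 and 1339 CPM at day 3 and 382, 525 and 465 CPM at day 5 (log2 fold change -1.51 ± 0.10, adjusted p = 0.00039). Tubb4b was at 186, 237 and 209.6 CPM at day 3 and 78.8, 104 and 86.4 CPM at day 5 (log2 fold change -1.23 ± 0.09, adjusted p = 0.000409) and Tubb5 at 873, 985 and 844 CPM at day 3 and 490.1, 480.0 and 372 CPM at day 5 (log2 fold change -1.02 ± 0.09, adjusted p = 0.000562). In these 3 genes every day 5 library lay below every day 3 library, and Tuba1a at day 0 was at 892, 1004 and 996 CPM. After removal of the exon-length trend 9 of the 11 were called lower, at a median of -0.82.

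Subunits of the proteasome were called lower in 22 of 35 genes and higher in 0, at a median of -0.29, and 14 were called lower without the length trend. Subunits of the chaperonin that folds actin and tubulin were called lower in 7 of 8, at -0.32, and 5 without the trend. Among S100 proteins 5 of 7 were called lower, at -0.65, and among annexins, which bind membranes in response to calcium, 5 of 10, at -0.37. Ckb, brain-type creatine kinase, was at 389, 421 and 537 CPM at day 3 and 121, 145 and 218 CPM at day 5 (log2 fold change -1.50 ± 0.11, adjusted p = 0.00039), whereas the muscle form Ckm did not pass the threshold.

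ADAMTS and ADAMTS-like matrix proteins were called higher in 10 of 17 genes and lower in 0, at a median of 0.65, and without the length trend 10 were higher and 2 lower. Adamts2, which trims procollagens, was at 233, 206 and 165 CPM at day 3 and 569, 539 and 536 CPM at day 5 (log2 fold change 1.46 ± 0.10, adjusted p = 0.00039). Cytosolic aminoacyl-tRNA synthetases, several of which ATF4 regulates, were called higher in 5 of 17, at 0.41. Nars was at 556, 363 and 201 CPM at day 3 and 579.9, 656 and 625 CPM at day 5 (0.83 ± 0.23, adjusted p = 0.028), the Cry2 knockdown lowest of the 3 at day 3 as in the amino acid stress genes, with adjusted p = 0.0997 without Cry1 knockdown day 3, 0.0789 without Cry1 knockdown day 5, 0.108 without Cry2 knockdown day 3 and 0.104 without Cry2 knockdown day 5.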
